A study of Bos taurus with 14 samples.

Results

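The genes described here encode 9 adhesion molecules of white blood cells: the integrin chains ITGAM, ITGAL, ITGB2, ITGA4 and ITGB1, the immunoglobulin-type ligands ICAM1, ICAM3 and PECAM1, and the hyaluronan receptor CD44. They were chosen by name, from the gene name or the bracketed symbol that the array files give for each probe. Each of the 9 had exactly 1 probe with 1 spot, out of 5915 distinct gene symbols on a custom bovine array of 15011 probes. No selectin is among the 9.

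The samples were peripheral blood neutrophils on day 7 and on day 0 from 4 Holstein cattle (animals 25, 26, 32 and 34), and liver tissue on day 7 and on day 0 from 3 other Holstein cattle (animals 58, 61 and 66). All 7 animals, described for the series as heifers or steers, received the carotenoid β-cryptoxanthin by mouth on day 0 at 0.2 mg per kg body weight. The sources used here do not give ages, how liver was sampled or the hour of the day 0 sample relative to dosing. Undosed animals were not analysed here. Every tissue and day was measured on 1 single-colour array per animal, 14 arrays in all.

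Integrins are pairs of an α and a β chain. The β2 chain, from ITGB2, pairs with αL (ITGAL) to form LFA-1 and with αM (ITGAM) to form Mac-1, the complement receptor that neutrophils use for firm adhesion and for taking up opsonised particles. The β1 chain, from ITGB1, is made by most cell types and pairs with α4 (ITGA4) to form VLA-4, which binds VCAM1 and fibronectin. ICAM1 on endothelium and other cells is a ligand of LFA-1 and Mac-1, ICAM3 is a leukocyte ligand of LFA-1, PECAM1 lies at endothelial junctions and on leukocytes and platelets, and CD44 binds hyaluronan. Neutrophils first roll on selectins, are then arrested by activated integrins and finally cross between endothelial cells. Liver holds sinusoidal endothelium, resident macrophages and passing leukocytes among many hepatocytes.

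The probes of the integrin α chains and of ITGB1 are printed here because each of these genes rests on 1 sequence of 60 bases, and because related chains could share probe sequence. They were taken from the array files and are written 5′ to 3′, with no base marked.

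ITGAM: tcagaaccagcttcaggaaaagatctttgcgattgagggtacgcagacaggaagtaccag
ITGAL: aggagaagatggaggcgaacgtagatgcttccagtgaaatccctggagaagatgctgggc
ITGA4: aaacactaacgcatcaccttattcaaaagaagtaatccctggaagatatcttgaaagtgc
ITGB1: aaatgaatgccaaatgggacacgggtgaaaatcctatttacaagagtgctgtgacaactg

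The G and C content of the 9 probes ran between 36.7% for ITGA4 and 55.0% for ICAM3. The longest run of bases that any of the 9 shared with another probe of the array was 14 bases on the same strand (ITGAL and PECAM1) and 13 bases on the opposite strand (ITGAL, ICAM1 and ICAM3). Only probes were compared, so matches to transcripts of related chains were not examined. Brightness depends on the probe as well as on the transcript, so each gene was compared only with itself across samples.

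The samples carried the markers of their labels. CXCR1, S100A8 and S100A12, 3 neutrophil markers, averaged 5.39, 7.87 and 8.98 in neutrophils on day 7 against -6.46, -3.09 and -0.74 in liver on day 7 (log2 signal relative to the array's 75th percentile, the scale of all levels below). Of the 8 neutrophil markers with a probe, 7 were higher in neutrophils than in liver on each day, and LTF, lower on day 0 (-0.36 against 1.74), was the exception. All 12 hepatocyte marker probes were well above background on every liver array, against between 1 and 3 of them on the neutrophil arrays. The neutrophil samples also held signal of other cells: the summed relative signal of the 10 T and NK cell markers ran between 22.7 and 105 in neutrophils on day 7 and between 10.7 and 36.5 in neutrophils on day 0, against 0.807 to 1.12 in liver on day 7 and 0.804 to 1.08 on day 0. GZMB was the brightest of these in neutrophils (means of 5.09 and 3.78). Of 9 tested, 8 were higher and NKG7 lower on each day. Of 3 monocyte and macrophage markers, 1 was higher and 2 lower on each day. Of 3 B cell markers, 3 were higher on day 7 and 2 on day 0. The eosinophil receptor CCR3 was higher on both days. The 8 neutrophil arrays shared 1 slide and the 6 liver arrays another, so tissue, animals and slide cannot be told apart. On both slides day 7 arrays lay in the second row and day 0 arrays in the first, so day and array position cannot be told apart either. The neutrophil array of animal 34 on day 7 was the weakest of the 14, with 57.1% of its spots well above background against 62.7% to 76.7% on the others, and a correlation over probes of 0.864 to 0.919 with the other neutrophil arrays.

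In neutrophils on day 7, 6 of the 9 genes were higher than in liver on day 7: ICAM3, ITGA4, ITGAM, ITGB2, CD44 and ITGAL. ICAM1 and PECAM1 were lower, and ITGB1 did not pass the test. On day 0 the counts were the same, for the same genes, with 6 higher, 2 lower and ITGB1 again not past the threshold (limma fitted to all probes, Benjamini-Hochberg adjusted p under 0.05 over all probes tested). The 2 tissues differed at most probes: 69% of the 10208 probes tested passed on day 7 (35.1% higher and 34% lower in neutrophils), and 83.1% of 11498 on day 0 (43.4% and 39.7%). For 8 of the 9 members the tissues did not overlap on either day. The arrays of the tissues did not overlap for 36.1% of all probes tested, higher in neutrophils, and 35.7%, lower, on day 7, and for 43.2% and 39.2% on day 0. The members' median difference was 4.43 on day 7 and 4.59 on day 0, against 0.03 and 0.117 over all probes tested. With ITGA4, and on day 7 also ITGAM, set at its lower bound, the members' medians were 3.97 on day 7 and 4.55 on day 0. In those cases the probe entered the test only through the neutrophil arrays. Its call rests on liver spots not well above background. A normexp background correction with quantile normalization, which adds an offset and so shrinks differences of dim probes, kept every call at smaller sizes, with medians of 1.99 on day 7 and 2.81 on day 0. Under it the day 0 differences were 1.82 for ITGA4, 2.91 for ITGAM, 2.81 for ITGAL, -1.93 for ICAM1 and -1.02 for PECAM1. These are bulk samples, in which fewer cells of a type and less RNA per cell cannot be told apart.

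**Figure D1:**
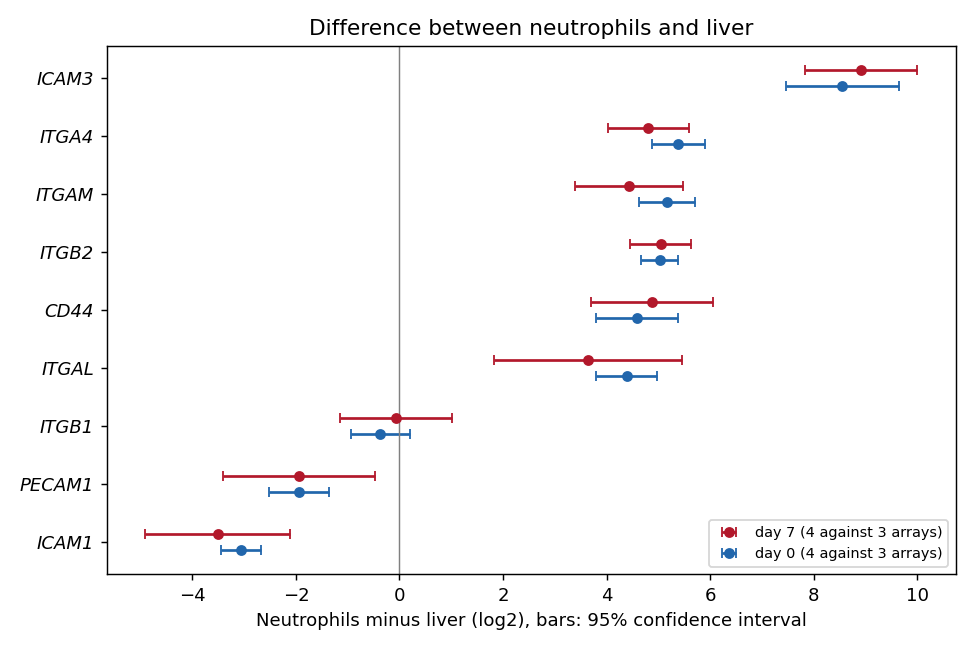
Difference between neutrophils and liver for each of the 9 genes (log2), on day 7 and on day 0, with bars for the 95% confidence interval of the limma fit over 4 neutrophil and 3 liver arrays. ICAM3 lies highest at 8.91 on day 7 and 8.55 on day 0, the ITGB1 intervals include 0 on both days, and PECAM1 and ICAM1 lie below 0.

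ITGB2 encodes the common β2 chain. In neutrophils it read 6.11, 6.21, 6.32 and 6.66 on day 7 and 6.30, 6.37, 6.40 and 6.52 on day 0 for animals 25, 26, 32 and 34. In liver it read 1.26, 1.46 and 1.13 on day 7 and 1.33, 1.56 and 1.22 on day 0 for animals 58, 61 and 66. Every neutrophil array lay far above every liver array, and within each tissue the days overlapped. The difference was 5.04 ± 0.25 on day 7 (SE; 32.9-fold higher in neutrophils, adjusted p = 5.93e-07) and 5.03 ± 0.15 on day 0 (32.6-fold, adjusted p = 3.15e-08). Its SD over the 4 neutrophil arrays, 0.238 on day 7 and 0.0914 on day 0, was the smallest of the 9 on both days.

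ITGAM, the αM chain of Mac-1, read -1.70, -1.77, -1.60 and -3.34 in neutrophils on day 7, and -0.50, -0.97, -0.87 and -1.09 on day 0, in the same order of animals. The liver levels were -6.88, -6.50 and -6.19 on day 7 and -6.49, -5.76 and -5.84 on day 0. The tissues did not overlap, and no day 7 liver array had the spot well above background, whereas all 3 did on day 0. On day 7 the difference was 4.43 ± 0.46 (adjusted p = 3.93e-05), which is given as at least 15.7-fold because the liver spots have only a bound. On day 0 it was 5.17 ± 0.23 (36.0-fold higher in neutrophils, adjusted p = 2.06e-07). Such a bound sets the bright group's mean against, on each dim array, the higher of the probe's own value and the lowest signal well above background there.

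ITGAL, the αL chain of LFA-1, is known for its role in lymphocytes as well as neutrophils. Its neutrophil levels were -1.39, -1.22, -0.67 and -4.33 on day 7 and -0.56, -0.68, -0.95 and -0.56 on day 0. Liver read -5.77, -5.30 and -5.56 on day 7, with 2 of 3 spots well above background, and -5.67, -4.90 and -4.67 on day 0. All neutrophil arrays lay above all liver arrays, although animal 34 on day 7 came within about 1 unit of the highest day 7 liver array. The difference was 3.64 ± 0.79 on day 7 (12.5-fold higher in neutrophils, adjusted p = 0.00317) and 4.39 ± 0.26 on day 0 (21.0-fold, adjusted p = 8.42e-07).

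ITGA4, the α4 chain of VLA-4, read -2.72, -2.98, -2.10 and -2.78 in neutrophils on day 7 and -2.30, -2.78, -2.28 and -2.54 on day 0. None of the 6 liver arrays had the spot well above background, with measured means of -7.45 on day 7 and -7.86 on day 0. The neutrophil samples were therefore at least 17.3-fold higher on day 7 and at least 23.4-fold higher on day 0. The measured differences, which rest on those dim liver spots, were 4.80 (limma adjusted p = 4.32e-06) and 5.38 (adjusted p = 1.16e-07). The probe entered both tests only through the neutrophil arrays, so these p values do not test the bounds. T cells also carry this chain, and the T and NK cell signal given above was higher in neutrophil samples than in liver on both days. Neither the part of that signal in the ITGA4, ITGAL and CD44 differences nor that of other cells was tested.

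ITGB1, the β1 chain that pairs with α4, did not follow its partner. Neutrophils read -1.24, -1.44, -1.26 and -3.11 on day 7 and -1.01, -1.90, -1.47 and -1.22 on day 0. Liver read -1.51, -1.70 and -1.88 on day 7 and -1.31, -0.77 and -1.02 on day 0. The tissues overlapped on both days. The difference was -0.07 on day 7 (95% confidence interval -1.15 to 1.01, adjusted p = 0.907) and -0.37 on day 0 (-0.93 to 0.20, adjusted p = 0.194), so differences of the size seen for the α chains lie outside both intervals. Without animal 34 the day 7 difference was 0.38 (adjusted p = 0.119), and its sign also turned under quantile normalization (0.21), median scaling (0.23) and normexp with quantile normalization (0.17) and without animal 58 (0.03).

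**Figure D2:**
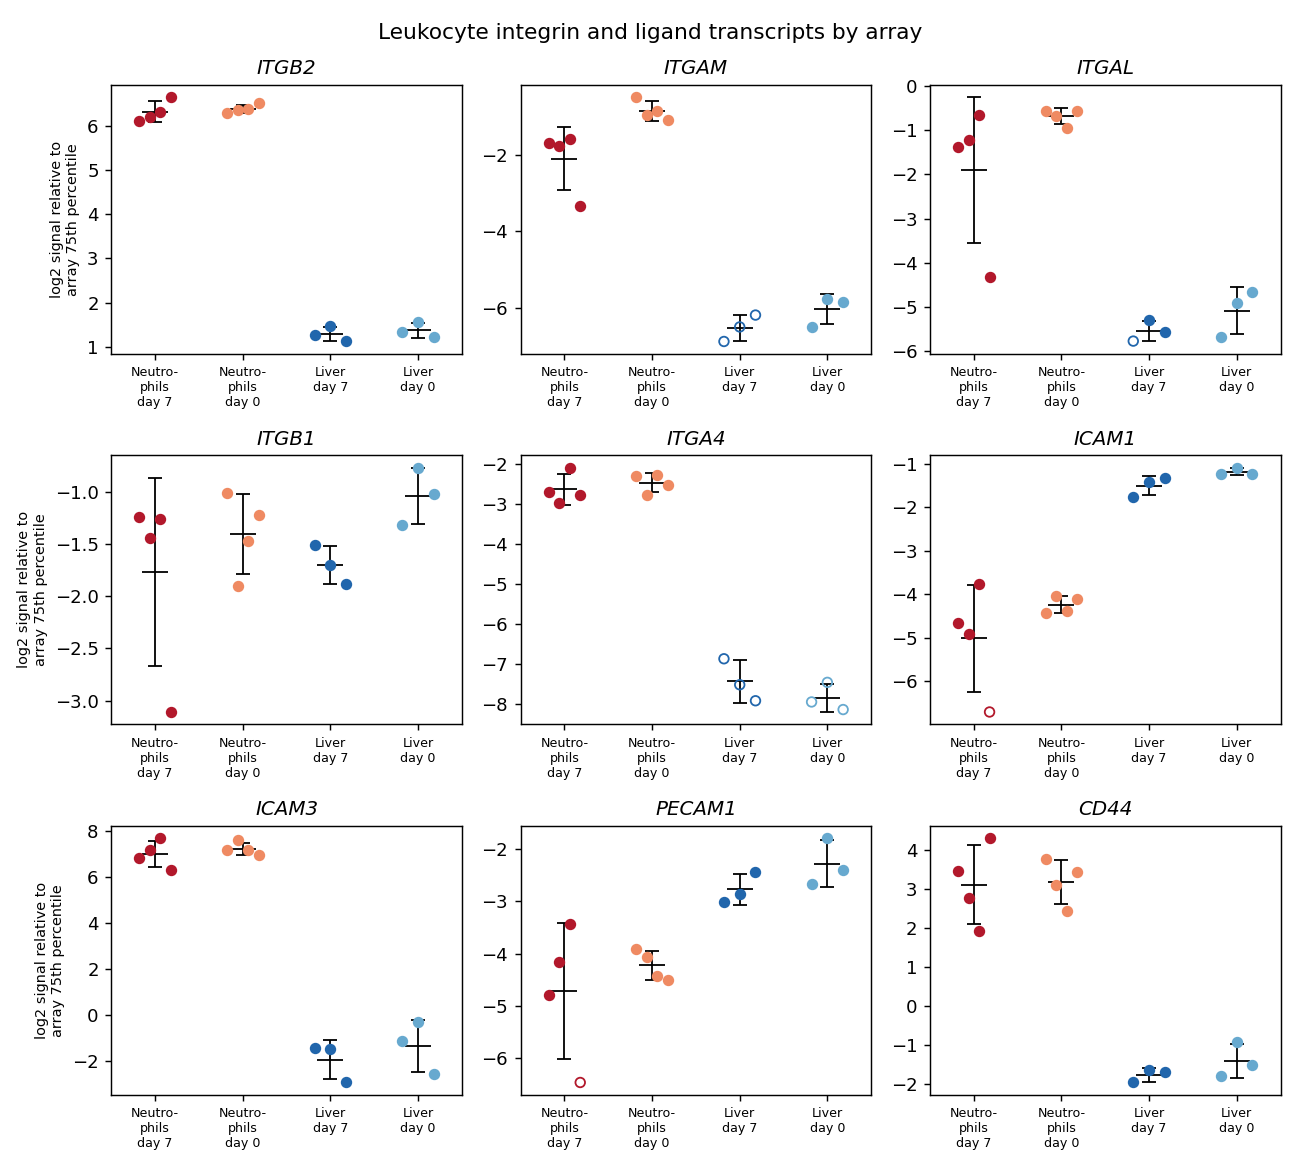
Level of each gene on every array (log2 signal relative to the array's 75th percentile), for neutrophils on day 7 and day 0 (4 animals each) and liver on day 7 and day 0 (3 animals each), with animals in rising number from left to right in each group. Open circles are spots not well above background, horizontal lines are means and bars are SD, and each panel has its own axis. ITGB2 and ICAM3 stand far above liver on every neutrophil array, ITGB1 overlaps between the tissues, and the rightmost day 7 neutrophil point (animal 34) is lowest for ITGAM (-3.34), ITGAL (-4.33) and ITGB1 (-3.11).

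ICAM3, the leukocyte ligand of LFA-1, showed the widest gap between the tissues. It read 6.83, 7.17, 7.68 and 6.29 in neutrophils on day 7 and 7.18, 7.58, 7.17 and 6.96 on day 0. Liver read -1.40, -1.44 and -2.91 on day 7 and -1.12, -0.30 and -2.56 on day 0, with animal 66 lowest on both days. The difference was 8.91 ± 0.47 on day 7 (481-fold higher in neutrophils, adjusted p = 7.77e-07) and 8.55 ± 0.47 on day 0 (374-fold, adjusted p = 6.31e-07).

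ICAM1, the ligand of LFA-1 and Mac-1 on endothelium, ran the other way. Its neutrophil levels were -4.65, -4.91, -3.77 and -6.70 on day 7 and -4.43, -4.04, -4.39 and -4.11 on day 0, and the lowest of these, animal 34 on day 7, was not well above background. Liver read -1.76, -1.41 and -1.33 on day 7 and -1.23, -1.09 and -1.23 on day 0. All neutrophil arrays lay below all liver arrays. The difference was -3.51 ± 0.61 on day 7 (adjusted p = 0.000924) and -3.06 ± 0.16 on day 0 (8.34-fold lower in neutrophils, adjusted p = 5.28e-07). Without animal 34, whose day 7 spot has only a bound, the day 7 difference was -2.95 (adjusted p = 0.000141).

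PECAM1 was also lower in neutrophils, by a smaller margin. Neutrophils read -4.79, -4.17, -3.43 and -6.46 on day 7, with 3 of 4 spots well above background, and -3.92, -4.07, -4.42 and -4.50 on day 0. Liver read -3.02, -2.86 and -2.45 on day 7 and -2.67, -1.80 and -2.40 on day 0. The groups did not overlap on either day, and the gap between the nearest arrays on day 7 lay between animal 32 and animal 58. On day 7 the difference was -1.94 ± 0.64 (adjusted p = 0.0246), and on day 0 it was -1.94 ± 0.25 (3.84-fold lower in neutrophils, adjusted p = 0.000119). Without animal 34, whose day 7 spot has only a bound, the day 7 difference was -1.35 (adjusted p = 0.0117). The day 7 call was lost without animal 58 (-2.06, adjusted p = 0.0507), 61 (-1.98, adjusted p = 0.0569), 66 (-1.77, adjusted p = 0.0779) or 25 (-1.91, adjusted p = 0.0539). The endothelial markers moved with ICAM1 and PECAM1: over 7 probes their summed relative signal lay between 0.110 and 0.305 in day 7 neutrophils and between 0.135 and 0.210 in day 0 neutrophils, against 4.07 to 4.48 in day 7 liver and 4.46 to 5.53 in day 0 liver. Their part in the differences was not tested.

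CD44, the hyaluronan receptor that is also a ligand for selectins on leukocytes, read 3.45, 2.77, 1.92 and 4.30 in neutrophils on day 7 and 3.77, 3.09, 2.43 and 3.43 on day 0. Liver read -1.96, -1.63 and -1.70 on day 7 and -1.79, -0.92 and -1.51 on day 0. The tissues did not overlap. The difference was 4.87 ± 0.52 on day 7 (29.3-fold higher in neutrophils, adjusted p = 4.62e-05) and 4.59 ± 0.34 on day 0 (24.1-fold, adjusted p = 3.92e-06). Its spread among neutrophil samples (SD 1.01 on day 7 and 0.575 on day 0) was wider than that of ITGB2.

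The genes that act with these molecules were read from 5 lists. Of 19 genes of integrin activation, the signalling that switches integrins to their binding state, 11 had a probe and 10 were tested. In neutrophils 9 were higher on day 7 and all 10 on day 0, with medians of 4.6 and 4.85 (4.28 and 4.79 with dim genes at their bound). The kinase SYK averaged 0.48 in neutrophils and -6.10 in liver on day 0 (difference 6.58 ± 0.20, adjusted p = 2.89e-08). The exchange factor VAV1 averaged 5.72 against 0.18 (5.54 ± 0.16, adjusted p = 2.31e-08), and the actin regulator VASP 6.98 against 1.66 (5.33 ± 0.17, adjusted p = 3.62e-08). ILK, named after its values were seen, was the gene that did not pass on day 7 (0.57).

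Of 13 genes of selectins and selectin ligand synthesis, 11 had a probe. On day 7, 5 of the 8 tested were higher and 2 lower in neutrophils, and on day 0, 7 of 10 were higher and 2 lower. SELPLG, the main leukocyte ligand of P-selectin, averaged 5.56 against -2.16 on day 0 (7.73 ± 0.23, adjusted p = 2.71e-08). The sulphotransferases that act on such ligands went opposite ways on day 0: TPST2 was higher in neutrophils (4.45 against -0.88, adjusted p = 1.7e-08) and TPST1 lower (-5.90, with 1 of 4 spots well above background, against 1.95, adjusted p = 5.47e-07).

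Of 14 endothelial and junctional counter-receptors, 7 had a probe and were tested, and 2 were higher and 4 lower in neutrophils on each day. VCAM1, the ligand of VLA-4, was lower in neutrophils by at least 136-fold on day 0 (-7.50 against 1.36 in liver, adjusted p = 5.7e-08). The junction proteins ESAM (at least 57.1-fold, adjusted p = 5.46e-08) and CDH5 (adjusted p = 1.27e-06) and the sialomucin CD34 (at least 10.4-fold, adjusted p = 2.09e-05) were lower as well. ESAM averaged -7.75 in neutrophils against 0.11 in liver, CDH5 -5.56 against -2.38 and CD34 -7.56 against -2.35. CDH5 was well above background on 2 of the 4 neutrophil arrays, so the size of its difference is not exact. VCAM1, ESAM and CD34 entered the test only through liver. Their adjusted p rests on neutrophil spots not well above background. CD47 and MADCAM1, named after their values were seen, were higher in neutrophils on day 0 by 2.13 and 2.41.

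Other integrin chains were split. Of 21, 7 had a probe and 5 were tested, with 1 higher and 2 lower in neutrophils on day 7 and 2 higher and 2 lower on day 0. ITGA2B, the platelet αIIb chain, was higher (1.42 against -1.83 on day 0, difference 3.25 ± 0.18, adjusted p = 6.87e-07), and it was the only probe of the platelet marker list. ITGAV, the αV chain, was higher on day 0 (-0.50 against -1.72, adjusted p = 0.0014). Its β partners ITGB5 (0.85 against 2.24, adjusted p = 0.0128, a difference of -1.38, or -3.49 with a trend over spot rows removed) and ITGB3 (-6.98 against -4.35, at least 2.60-fold, adjusted p = 0.00016) were lower. Of 7 CD44 partners, 6 had a probe and 5 were tested on day 0, with 3 higher and 1 lower in neutrophils. These were MSN and EZR, which link CD44 to actin (4.93 ± 0.17 and 3.59 ± 0.20 higher), the protease MMP9 (6.20 ± 0.22 higher) and the CD44 ligand SPP1 (-2.60 ± 0.42, with 1 of 4 neutrophil spots well above background).

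**Figure D3:**
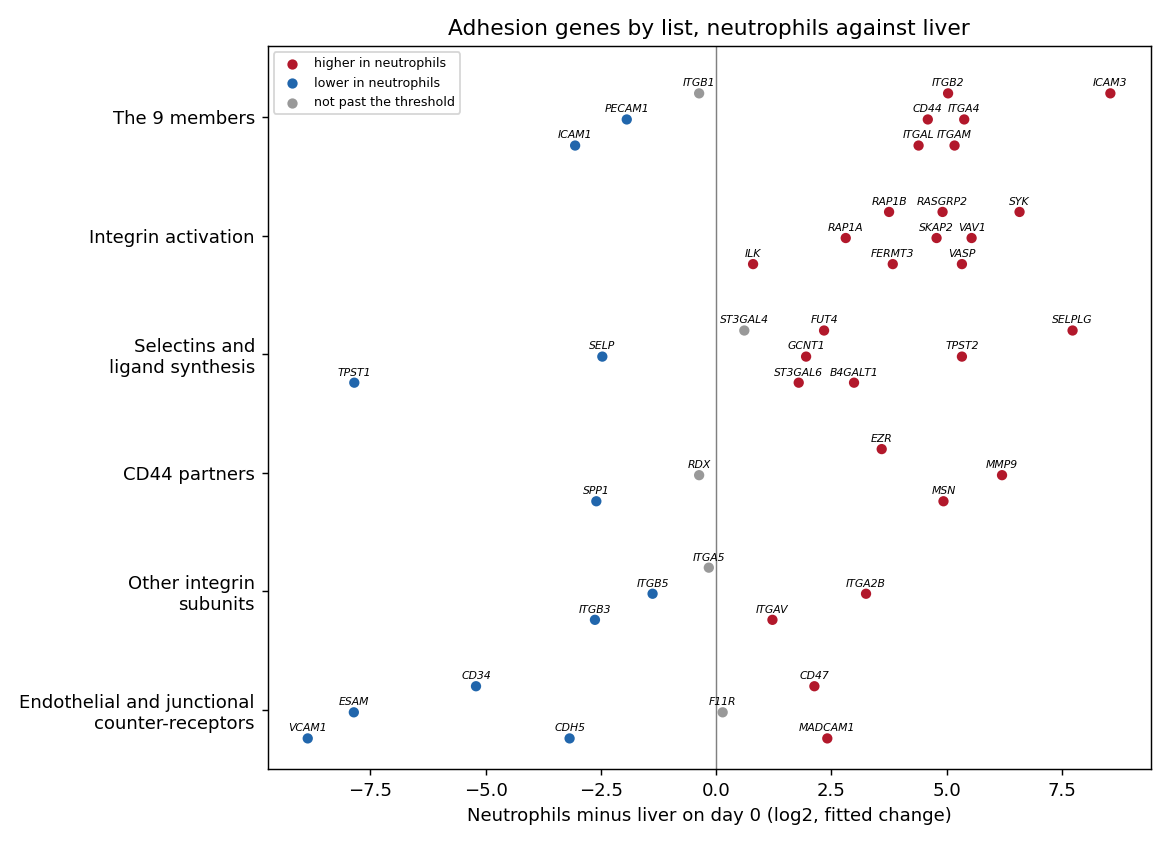
Difference between neutrophils and liver on day 0 (log2) for the 9 members and for genes of the 5 lists, 1 point per gene, with points staggered only for legibility. Red points were higher and blue points lower in neutrophils at an adjusted p under 0.05, and grey points did not pass. The integrin activation genes shown lie to the right of 0, and 4 of 7 endothelial and junctional genes are lower, with VCAM1 at the far left.

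Genes whose profile over the 14 arrays was most like that of a member were found by the root-mean-square difference of profiles, each centred on its own mean, among 3549 genes well above background on all neutrophil arrays. Nearest to ITGB2 were ARHGDIB (0.179), DENND10 (0.237), GNG2 (0.24), IL16 (0.24) and SKAP2 (0.251), against a median of 2.33 over all these genes. ARHGDIB averaged 5.84 in neutrophils and 0.98 in liver, and SKAP2 is also in the integrin activation list. Nearest to ITGAM were EMP3 (0.297), CDK5R1 (0.352), MBOAT7 (0.365), RARA (0.376) and UBTD1 (0.384). Nearest to ITGB1 were LEPROTL1 (0.238), TUBA1A (0.306), NUP85 (0.327), INTS5 (0.328) and INVS (0.332), against a median of 1.07, and LEPROTL1 averaged -2.56 in neutrophils and -2.20 in liver. The profiles include the step between the tissues, which are also the 2 slides.

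Between day 7 and day 0 in neutrophils, none of the 9 members passed the test, and neither did any other probe: 0% of 9450 probes had an adjusted p under 0.05 in limma with animal as a block, while 1268 had an unadjusted p under 0.05. ITGAM was the only member among those 1268. It was lower on day 7 in 4 of 4 animals, by -1.19, -0.79, -0.73 and -2.24 in animals 25, 26, 32 and 34, and the day 7 and day 0 arrays did not overlap. The fitted change was -1.24 ± 0.32 (95% confidence interval -2.0 to -0.48, adjusted p = 0.304). Without animal 34 it was -0.90 (adjusted p = 0.224). Of all probes tested, 4.52% lay lower on day 7 with no overlap of the days, and 13.2% were lower in all 4 animals.

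The other members moved by amounts within their spread in neutrophils. ITGAL changed by -0.83, -0.53, 0.29 and -3.77 in the 4 animals (fitted -1.21, 95% confidence interval -2.67 to 0.25, adjusted p = 0.422), and without animal 34 by -0.36. ICAM1 changed by -0.23, -0.87, 0.63 and -2.59 (-0.77, -1.95 to 0.41, adjusted p = 0.496), and without animal 34 by -0.16. PECAM1 changed by -0.87, -0.10, 0.99 and -1.96 (-0.49, adjusted p = 0.632). In all 3 genes animal 34 had the lowest measured change and animal 32 the highest, and only animal 32 was above 0. The day 7 spots of animal 34 for ICAM1 (-6.70) and PECAM1 (-6.46) were not well above background. They lay under the lowest signal well above background on that array (-4.75). For ICAM1 and PECAM1 the change in animal 34, its place among the animals and the fitted change are therefore not exact.

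ITGB1 changed by -0.24, 0.46, 0.21 and -1.89 (-0.36, adjusted p = 0.688), and CD44 by -0.32, -0.32, -0.51 and 0.87 (-0.07, adjusted p = 0.924). Thus animal 34 was lowest for ITGB1 and highest for CD44. ICAM3 changed by -0.35, -0.41, 0.51 and -0.67 (-0.23, 95% confidence interval -0.90 to 0.44, adjusted p = 0.71). ITGA4 changed by between -0.43 and 0.18 (-0.17, -0.74 to 0.40, adjusted p = 0.753) and ITGB2 by between -0.19 and 0.14 (-0.07, -0.62 to 0.48, adjusted p = 0.894), the narrowest of the 9. The members' median change was -0.36, against -0.066 over all probes tested. It was -0.15 without animal 34, -0.16 with normexp, -0.61 without animal 26 and -0.56 without animal 32.

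None of the markers tested for T and NK cells (9), B cells (3), neutrophils (8) or eosinophils (1) passed between the days in neutrophils. The summed T and NK cell signal was 59.5, 24.7, 22.7 and 105 on day 7 against 20.5, 10.7, 14.7 and 36.5 on day 0 in animals 25, 26, 32 and 34, higher on day 7 in each. The largest term in this sum was GZMB, which averaged 5.09 on day 7 and 3.78 on day 0, while CD3E averaged 1.88 against 1.11 and CD2 -1.85 against -1.91. The median change of the 9 tested was 0.49. The 8 neutrophil markers summed to between 491 and 1140 on day 7, and to between 621 and 775 on day 0. The 3 B cell markers summed to 3.76 to 7.43 on day 7, against 1.9 to 3.45 on day 0. CCR3, an eosinophil receptor and the only probe of its list, ran the other way, at 0.509 to 0.747 on day 7 against 1.14 to 3.71 on day 0. Eosinophils also carry the αM and α4 chains. The part of these values in the changes above was not tested. Of the list genes, none passed. The smallest p in each list belonged to ITGB5 (0.83 ± 0.27), GCNT1, an enzyme of selectin ligand synthesis (-1.37 ± 0.46), F11R, a junctional ligand of LFA-1 (-1.49 ± 0.51), RASGRP2, an activator of Rap1 (-0.93 ± 0.53) and MSN (-0.44 ± 0.31), with adjusted p between 0.323 and 0.527.

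**Figure D4:**
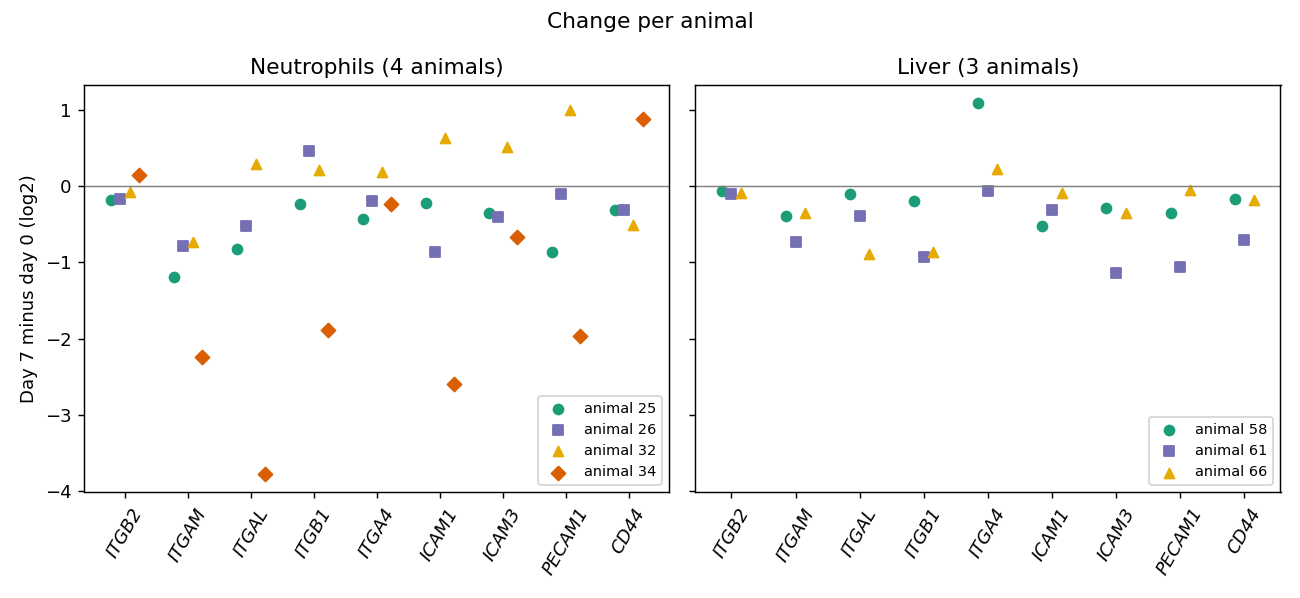
Day 7 minus day 0 (log2) for each of the 9 genes in each animal, neutrophils of 4 animals on the left and liver of 3 animals on the right, 1 point per animal. As measured, ITGAM lies below 0 in all 7 animals. In neutrophils, animal 34 has the lowest measured point for ITGAL (-3.77) and ICAM1 (-2.59) and the highest for CD44 (0.87). The ITGA4 points in liver are from spots not well above background. So are the day 7 values behind the ITGAM points in liver and the ITGAL point of animal 58. The same holds for the ICAM1 and PECAM1 points of animal 34.

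In liver no member passed the test between day 7 and day 0 either, while 3.98% of 10935 probes did (2.67% higher and 1.31% lower on day 7). ITGA4 was too dim in liver to be tested. The other 8 all read lower on day 7 in 3 of 3 animals, against 22.8% of all probes tested. Their median change was -0.48 against -0.036 over all probes (-0.41 with ITGAM at its bound). In animal 58 the day 7 spots of ITGAM (-6.88) and ITGAL (-5.77) were not well above background. The lowest signal well above background on that array was -5.51, above their day 0 values of -6.49 and -5.67. The sign of the ITGAM and ITGAL changes in animal 58 is therefore not settled. The members' median was -0.29 with the row trend described below removed, -0.30 with normexp and -0.32 without animal 61. With that trend removed, the fitted changes were 0 for ITGB2, -0.04 for ITGB1 and 0.03 for ICAM3. Those of the other members tested lay between -0.42 and -0.28, with ITGAM limited by its bound. ICAM1 and ITGB1 had days that did not overlap, as did 8.02% of all probes in that direction.

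ITGB1 had the largest of these changes, -0.20, -0.93 and -0.86 in animals 58, 61 and 66 (fitted -0.66 ± 0.18, adjusted p = 0.156). ICAM3 changed by -0.29, -1.14 and -0.36 (-0.59 ± 0.20, adjusted p = 0.234). Both spots lie in row 188 of the 192 spot rows, and the probes within 4 rows on either side of it, 499 in number, had a median change of -0.58 themselves. With a smooth trend over spot rows removed from each array, the changes were -0.04 for ITGB1 and 0.03 for ICAM3. The other members lie in rows 78 to 150, where the neighbouring probes had medians between -0.09 and -0.02.

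ITGAM changed by -0.39, -0.74 and -0.35 in liver (-0.49 ± 0.13, adjusted p = 0.137), at least 1.03-fold because its day 7 spots have only a bound. PECAM1 changed by -0.35, -1.06 and -0.05 (-0.49, adjusted p = 0.353) and ITGAL by -0.10, -0.40 and -0.89 (-0.46, adjusted p = 0.287). CD44 changed by between -0.71 and -0.17 (-0.35, adjusted p = 0.332), ICAM1 by between -0.53 and -0.09 (-0.31, adjusted p = 0.302) and ITGB2 by between -0.10 and -0.07 (-0.08, 95% confidence interval -0.33 to 0.17, adjusted p = 0.712). The livers also differed in other markers: the 6 skeletal muscle genes all rose, with a summed relative signal of 2.88 to 11.7 on day 7 against 0.0157 to 0.107 on day 0, and the hepatocyte sum was 912 to 1230 against 687 to 818. Of the 12 hepatocyte markers, 2 passed as higher on day 7 and 10 did not pass, with a median change of 0.18. Of the 5 neutrophil markers tested in liver, none passed between the days. LTF, the marker that was higher in liver than in neutrophils on day 0, averaged -0.37 on day 7 against 1.74 on day 0. S100A12 averaged -0.74 against -0.48. The 8 neutrophil markers summed to 1.22, 1.9 and 2 on day 7 in animals 58, 61 and 66. On day 0 they summed to 2.71, 9.47 and 3.4, with animal 61 the highest. Whether these shifts bear on the members' changes was not tested.

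Among the list genes, ITGB5 (1.96 ± 0.15, adjusted p = 0.012) and TPST2 (0.84 ± 0.10, adjusted p = 0.0269) were the 2 that passed in liver, both higher on day 7. They lie in spot rows 1 and 9, and among the liver probes of rows 1 to 16 the median change was 0.53. With the row trend removed they read 0.17 (adjusted p = 0.67) and 0.28 (adjusted p = 0.378). Both calls were also lost without animal 58 (adjusted p = 0.102 for ITGB5 and 0.188 for TPST2), without animal 61 (0.0547 and 0.112) and without the filter on dim probes (0.114 and 0.151). TPST2 was lost as well without animal 66 (0.102) and in 1 fit over all arrays (0.0951).

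The change in neutrophils was set against the change in liver in 1 fit over the 14 arrays, in which 1.17% of 8841 probes passed and none of the 8 members tested did. ITGAM had a difference of changes of -0.75 ± 0.40 (95% confidence interval -1.65 to 0.16, adjusted p = 0.477) and ITGAL of -0.75 ± 0.84 (adjusted p = 0.721). ITGB2 had 0.01 ± 0.24 (-0.53 to 0.55, adjusted p = 0.988). The other 5 lay between -0.45 for ICAM1 and 0.36 for ICAM3, and each interval included 0. Of the 2 B cell markers tested in this fit, 1 passed, with the neutrophil change above the liver change. None of the 8 T and NK cell markers or the 5 neutrophil markers tested in it passed. The part of these markers in the members' values was not tested.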

How the data were processed

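RNA of 14 samples was hybridised in 1 colour (Cy3), and the spot intensities are the processed signals that the authors deposited from Agilent Feature Extraction (9.5 in the submitters' processing notes, 9.5.1.1 in the headers). Per the file headers, that software took off background and a spatial trend and put surrogates in place of low values. The mean spot and background intensities, as deposited, served 1 alternative. The deposited flags for control, outlying, saturated and well measured spots are scores of 0 or 1 per the file headers. The authors' deposited value table of log2 values matched log2 processed signal minus a constant on every array (r = 1), within 0.0132 of the 75th percentile used here. The authors' column medians ran between -3.55 and -2.69.

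Levels are log2 processed signals from which the 75th percentile of each array, over spots that are neither controls nor outliers, was subtracted, and spots of 1 sequence were averaged. Probes entered a test if all arrays of 1 or both groups compared had them well above background (for the difference of changes, in both tissues). Where a fold is given as a bound, the adjusted p is that of the measured values, and the probe entered through its bright group. limma 3.58.1 in R 4.3.3 fitted all probes, with animal as a block between days, and Benjamini-Hochberg adjustment ran over all probes tested at 0.05. The code was tested on simulated data. Day 7 and day 0 arrays pair by animal, per the labels, and deviations from group means correlated between the days by 0.03 to 0.61 in neutrophils and 0.31 to 0.65 in liver. Of 15011 probes, 6025 had 1 symbol, 2 several and 8984 none here; names come from the files and, through accessions, from RefSeq (ARS-UCD2.0). The sources used here give no genome build for the probes.

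All 9 members are named, and from each list up to 4 genes per comparison, those past the threshold with the largest change, then those with the smallest p. The brightest probe stands for a gene. Members and lists were chosen with earlier results of these data known. Replicates are separate animals, per the labels, and their small number limits the precision. Alternatives were other normalizations, the authors' values, a row trend removed, other filters, each animal left out, no block and 1 fit over all arrays. Some genes of the lists enter the counts but are not reported here by name.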

Additional observations from a re-analysis of the deposited data

Results flagged for a closer look

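For 3 of the 27 sets of 4 values checked among the members, 1 sample stood apart from the other 3 by Dixon's 95% criterion, which chance meets in about 1 of 20 groups. All 3 came from the day 7 neutrophil array of animal 34, the weakest array. ITGAM read -3.34 there, against -1.77 for the next array of its group. ITGB1 read -3.11, against -1.44 for the next. The change of CD44 was 0.87 in animal 34, against -0.32 for the nearest of the other animals.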

How the results depend on the processing

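The alternatives listed in the methods were run for every comparison to which they apply. The tissue differences have no block to leave out, and the difference of changes is already 1 fit over all arrays. A mean over several probes would give no other value, since each member has 1 probe. The 6 higher and 2 lower calls among the 9 members on day 0 held under all alternatives that tested all 9. With only probes well above background on every array, 5 of 8 were higher and 2 lower on day 0, and 3 of 4 higher on day 7. On day 7 the other alternatives kept 6 higher and 2 lower, apart from PECAM1 without 4 of the animals. Median scaling moved the median difference over all probes to 0.327 on day 7 (0.03 as reported) and to 0.421 on day 0 (0.117 as reported). No member passed for a change between days, or for the difference of changes, under any alternative.

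Counts over all probes moved more. In liver between days, 435 became 23 with the row trend removed, 0 without the filter, 210 with no replicate block and 177 in 1 fit over all arrays, and 0 to 164 on leaving out 1 animal (0 without animal 58). In neutrophils between days, 1 fit over all arrays gave 24, no replicate block gave 0 and each animal left out gave 0. The difference of changes gave 103 calls, 6 with the row trend removed, 66 without the filter, 77 with no replicate block, and 15 to 266 on leaving out 1 animal. The tissue difference gave 4650 calls on day 7 with the every-array filter, 6194 to 8283 on leaving out 1 animal, and 9218 to 9603 on day 0. The block changed no member's call.

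Signs turned only for values that passed no test. On leaving out 1 animal, the neutrophil day change ran between -0.38 and 0.07 for CD44 (0.01 with normexp), -0.98 and 0.01 for PECAM1 and -0.64 and 0.14 for ITGB1. The liver change of ICAM3 was 0.03 with the row trend removed. The day 7 tissue difference of ITGB1 was 0.21 with quantile normalization, 0.23 with median scaling, 0.17 with normexp, and between -0.24 and 0.38 on leaving out 1 animal. The difference of changes was 0.07 for ICAM1 with normexp. With the row trend removed it was -0.15 for ITGB2, -0.27 for ITGB1 and -0.20 for ICAM3. On leaving out 1 animal it ran between -0.92 and 0.16 for ICAM1, -0.06 and 0.05 for ITGB2, -0.03 and 0.43 for CD44 and -1.25 and 0.10 for ITGAL. The cause was not tested. ITGA4 in liver and ITGAM in liver on day 7 are limited by background.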
